A study of Mus musculus with 20 samples.

Results

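Sfmbt2, Gab1, Jade1, Smoc1 and Slc38a4 are noncanonical imprinted genes, and the methylation of the promoter windows at these 5 loci was read in single mouse blastocysts. The members are the 118 windows, of 54034 in all, whose start lies in 1 of 5 intervals on build GRCm39. The intervals are chromosome 2 from 10350000 to 10630000 for Sfmbt2 and the microRNA cluster inside it (107 windows), chromosome 8 from 81450000 to 81650000 for Gab1 (5 windows), chromosome 3 from 41450000 to 41600000 for Jade1 (3 windows), chromosome 12 from 81050000 to 81150000 for Smoc1 (1 window) and chromosome 15 from 96880000 to 96970000 for Slc38a4 (2 windows). Windows are 3500 bp long and carry no gene name, so a window is tied to a locus by position alone.

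The embryos were 10 blastocysts labelled control (replicates 1 to 10) and 10 labelled Padi6-mutant (replicates 11 to 20). The series describes the second group as coming from oocytes with the P620A mutation of Padi6, so the mutation is maternal. PADI6 belongs to the subcortical maternal complex, which the egg hands on to the embryo. The sources used here give no strain, age, sex, mother or litter. Nothing says which embryos share a mother, so p-values measure only the spread between these embryos. A level is the average over all cells of an embryo and over both parental alleles.

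Noncanonical imprinting is carried by the histone mark H3K27me3, which the oocyte lays down over certain genes without DNA methylation. The maternal copy stays silent in the early embryo and the paternal copy is expressed. In extraembryonic tissue the maternal copy of such genes later gains DNA methylation, and several of the genes act in the placenta. Slc38a4 differs in that DNA methylation of the oocyte also contributes to its imprint. The comparison asks whether promoter methylation at these loci differs in blastocysts when the egg carried the Padi6 mutation.

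The promoters of these genes differ in how many CG dinucleotides they offer for methylation, which is why they are shown. RefSeq sequences on GRCm38.p6 matched 4 of the 5 genes. The GRCm38.p6 positions cannot be joined to the GRCm39 windows, so no sequence is assigned to a window. Each line gives the 250 bases before an annotated start, 5′ to 3′, with every CG in capitals.
Sfmbt2, first start (chr2:10370201-10370450, plus strand): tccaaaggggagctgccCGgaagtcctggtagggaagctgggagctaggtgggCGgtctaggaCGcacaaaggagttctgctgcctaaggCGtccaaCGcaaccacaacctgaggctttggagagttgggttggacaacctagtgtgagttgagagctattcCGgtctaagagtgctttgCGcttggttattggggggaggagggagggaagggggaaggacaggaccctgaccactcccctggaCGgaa
Sfmbt2, other start (chr2:10372186-10372435, plus strand): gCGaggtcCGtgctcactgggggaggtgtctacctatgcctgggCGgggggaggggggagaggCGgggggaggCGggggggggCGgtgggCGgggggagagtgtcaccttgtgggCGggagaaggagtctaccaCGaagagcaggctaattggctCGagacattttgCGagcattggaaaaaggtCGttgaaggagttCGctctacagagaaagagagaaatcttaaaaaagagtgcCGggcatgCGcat
Gab1 (chr8:80880520-80880769, minus strand): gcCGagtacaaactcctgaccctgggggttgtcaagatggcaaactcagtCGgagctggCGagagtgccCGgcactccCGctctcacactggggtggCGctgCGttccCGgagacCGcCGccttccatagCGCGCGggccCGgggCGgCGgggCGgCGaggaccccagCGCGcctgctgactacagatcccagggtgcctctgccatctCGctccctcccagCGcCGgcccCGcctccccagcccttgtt
Jade1 (chr3:41555484-41555733, plus strand): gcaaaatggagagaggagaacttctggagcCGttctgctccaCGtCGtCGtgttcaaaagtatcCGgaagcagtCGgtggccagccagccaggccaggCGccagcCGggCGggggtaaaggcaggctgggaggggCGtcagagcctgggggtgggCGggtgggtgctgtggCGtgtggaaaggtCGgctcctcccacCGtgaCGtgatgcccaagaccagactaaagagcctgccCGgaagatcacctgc
Slc38a4 (chr15:97055957-97056206, minus strand): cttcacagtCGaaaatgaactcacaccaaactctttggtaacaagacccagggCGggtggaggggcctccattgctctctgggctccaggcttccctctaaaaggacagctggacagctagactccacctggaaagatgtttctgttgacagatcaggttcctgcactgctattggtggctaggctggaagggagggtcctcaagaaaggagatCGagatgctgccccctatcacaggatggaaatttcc
CG reads the same on both strands and does not overlap itself. The Gab1 promoter shown held 24 CG and 70.8% G or C, and 11.98% of the 32851 promoters in that table held as many or more. The other Gab1 start in the table held 25. The Jade1 promoter shown held 16 CG (25.4% of promoters held as many or more), and the 3 other Jade1 starts held 6, 35 and 18. The densest Jade1 start, with 35 CG, thus lay above Gab1, and 2.97% of promoters held as many or more. The Sfmbt2 promoters held 8 (43.0%) and 15 (27.3%). The Slc38a4 promoter shown held 3 (71.0% of promoters held as many or more) and the other 2 starts held 5 each, all below the median of 6 CG.

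Embryos differed widely in coverage. Read depth is not in the file, and the number of windows with a value stands in for it. Dense coverage (37049 to 46950 windows) was reached by 6 control embryos, and the other 4 were sparse (4984 to 17002). Of the mutant embryos 3 were dense (38549 to 43812) and 7 sparse (2875 to 13847). Over all windows a level of exactly 0% made up 32.1% to 58.6% of the values of a dense embryo and 58.4% to 76.1% of those of a sparse one. At the 5 loci, control embryos had a value in 3 to 96 of the 118 windows and mutant embryos in 1 to 106. Of the possible values at the 5 loci 35.9% were present, against 45.6% over all autosomal and X-linked windows.

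No window at the 5 loci passed the threshold. The test was limma on the untransformed percent, over every autosomal or X-linked window read in 3 or more embryos of each group, with Benjamini-Hochberg adjustment over all 37645 such windows and a threshold of an adjusted p under 0.05. Over all tested windows 0.0372% passed (14 windows), 0.0292% lower and 0.00797% higher in mutant embryos. Of the 118 members 56 could be tested and 0 passed (smallest limma adjusted p = 0.755). Their median difference, mutant minus control, was -0.36 percentage points, against -1.07 over all tested windows. At an unadjusted p under 0.05 there were 2 member windows, both higher in mutant embryos, and the share over all tested windows was 5.75% (3.9% lower, 1.85% higher).

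Because neighbouring windows overlap and reuse the same cytosines, overlapping windows were also merged into blocks, which gave 14 blocks at the 5 loci. The value of a block in an embryo is the mean of the windows with a value. Over all 30804 blocks that could be tested 0.0584% passed (18 blocks; 0.0487% lower, 0.00974% higher), and of the 13 member blocks that could be tested 0 passed (smallest limma adjusted p = 0.718). At an unadjusted p under 0.05 there was 1 member block, the first Sfmbt2 window, higher in mutant embryos, and the share over all blocks was 6.18% (4.28% lower, 1.91% higher). Of the 13 blocks, 7 were lower and 6 higher in mutant embryos.

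**Figure D1:**
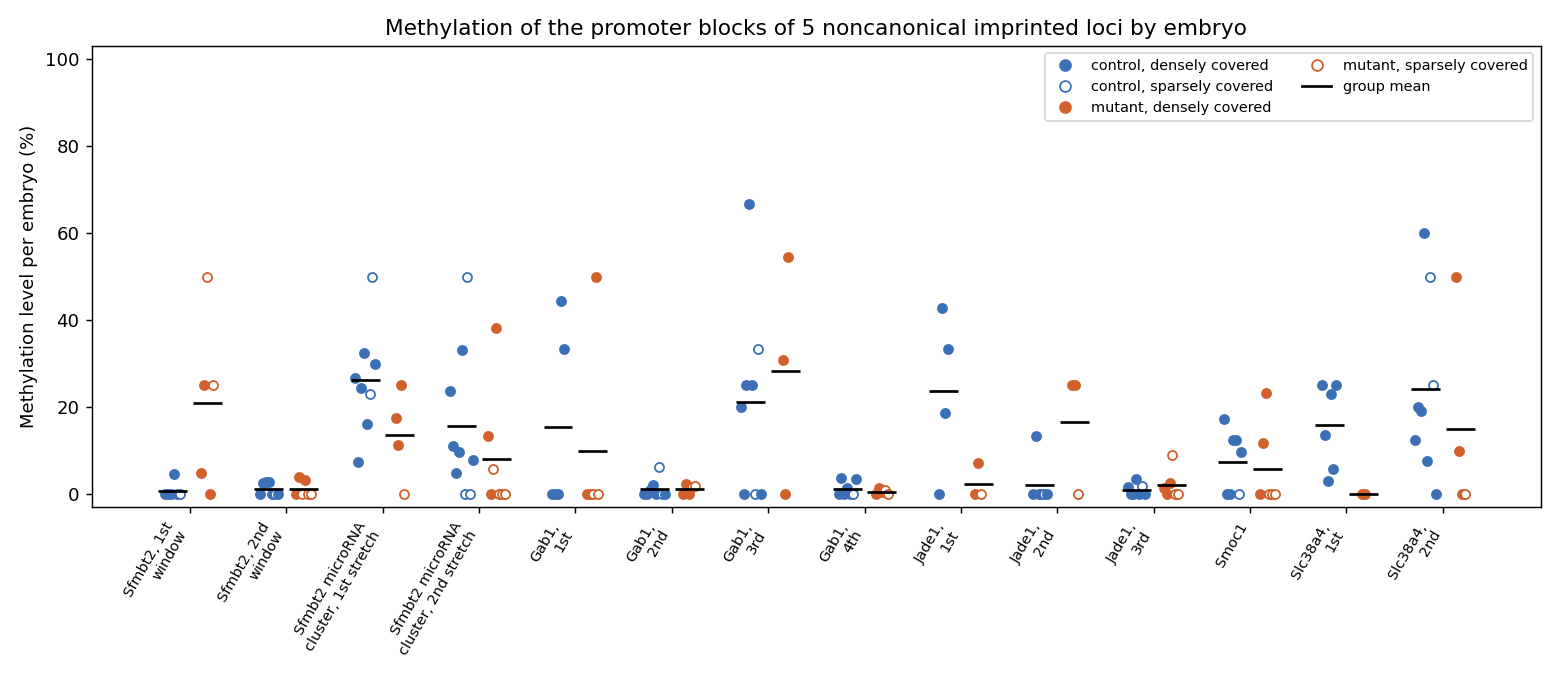
Methylation level in percent (vertical axis) of each of the 14 blocks (horizontal axis, by locus and position), with 1 point per embryo, blue for control and orange for mutant, filled for densely and open for sparsely covered embryos, and a black line at the group mean. The groups overlap in every block except the first of Slc38a4, where 6 control embryos lie above 2 mutant embryos.

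Sfmbt2 encodes a Polycomb-group protein needed for the trophoblast lineage of the placenta, and its intron holds a large microRNA cluster that is expressed with it. The first 2 windows of the locus stand apart from the cluster and from each other. In the first, on chromosome 2 from 10372321 to 10375820, 5 of 6 control embryos (replicates 1, 2, 3, 5 and 8) read 0% and control replicate 4 read 4.76%. Mutant replicates 11, 12, 13, 14 and 19 read 5.00%, 25.0%, 50.0%, 0% and 25.0%. So 4 of 5 mutant embryos lay above every control embryo, while mutant replicate 14, a densely covered embryo, lay at 0% with the controls. The means were 0.79% ± 1.94 (SD, n = 6) and 21% ± 19.8 (SD, n = 5), a difference of 20.2 points (SE 7.76) that did not pass the threshold (limma adjusted p = 0.718, exact two-sided permutation p = 0.0303 unadjusted). The highest mutant value and another at 25.0% come from the sparsely covered replicates 13 and 19, and among densely covered embryos alone the difference was 9.05 points (limma adjusted p = 0.837).

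The other such window, from 10378353 to 10381852, was close to unmethylated in both groups. Control embryos ran from 0% to 2.86% with a median of 0% and mutant embryos from 0% to 4.00% with a median of 0%. The means were 1.19% ± 1.49 (SD, n = 7) and 1.21% ± 1.89 (SD, n = 6), 0.02 points apart (SE 1.95, limma adjusted p = 1.0). Of the 30804 tested blocks, 6.91% had a lower control mean, so this window is among the least methylated. It lies near the first one, which read up to 50.0% in mutant embryos.

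The windows called the microRNA cluster here make up 105 of the 107 windows of the locus. They are the blocks of the locus with at least 10 windows, chosen by that number and not by a microRNA annotation. In the RefSeq table on GRCm38.p6, 72 microRNA genes lie inside Sfmbt2. By name 23 belong to Mir466, 29 to Mir669, 14 to Mir467 and 5 to Mir297. They are short related RNAs made from a repeated unit, several of them abundant in trophoblast. The cluster windows form 2 stretches of overlapping windows, 45 of them from 10467098 to 10491733 and 60 from 10494232 to 10523465.

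Averaged over windows, the cluster had an intermediate level in most control embryos, although 48.8% of its single values in all embryos were exactly 0%. Over all cluster windows with a value, control embryos ran from 0% to 50.0% with a median of 18.9%, and mutant embryos from 0% to 32.2% with a median of 2.52%. The means were 18.8% ± 14.3 (SD, n = 9) and 7.24% ± 11.3 (SD, n = 8), a difference of -11.5 points (SE 6.23), with 7 of 8 mutant embryos below the control mean. The extremes overlapped: control replicate 8 and mutant replicates 15, 18, 19 and 20 all stood at 0%. Control replicate 9 and mutant replicates 16 and 17 had no value in the cluster.

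That difference was wider in the sparsely covered embryos, where it rested largely on control replicate 7, and was near 0 in the densely covered ones. Densely covered controls ran from 9.43% to 25.0% (mean 18.3% ± 6.51, SD, n = 6), and the densely covered mutant replicates 11, 12 and 14 read 14.9%, 5.05% and 32.2% (mean 17.4% ± 13.7, SD, n = 3). Here the difference was -0.97 points (SE 8.36), since mutant replicate 14 lay above every densely covered control and replicate 12 below them. Sparsely covered control replicates 6, 7 and 8 read 8.82%, 50.0% and 0%, and the sparsely covered mutant replicates 13, 15, 18, 19 and 20 read 5.83%, 0%, 0%, 0% and 0%, with a difference of -18.4 points (SE 15.5). Of the 105 windows those 5 mutant embryos were read in 30, 9, 8, 4 and 1, and the 3 control embryos in 34, 11 and 10, against 46 to 93 in the densely covered embryos of both groups. The part of coverage in the difference was not tested.

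In the first stretch of the cluster the control embryos ran from 7.35% to 50.0% with a median of 25.6%. Mutant replicates 11, 12, 14 and 19 read 17.6%, 11.3%, 25.1% and 0%. Every one of these 4 stood under the mean of the controls, and 4 of 8 control embryos lay above the highest mutant embryo. The means were 26.3% ± 12.5 (SD, n = 8) and 13.5% ± 10.6 (SD, n = 4), a difference of -12.8 points (SE 7.14) that did not pass (limma adjusted p = 0.819, exact two-sided permutation p = 0.105). Among densely covered embryos it was -4.83 points. The control mean was above that of 79.8% of all tested blocks, and the mutant mean above that of 61.2%.

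In the other stretch control embryos ran from 0% to 50.0% with a median of 9.75%, and mutant embryos from 0% to 38.2% with a median of 0%. Of 7 mutant embryos, 4 read exactly 0% (replicates 12, 15, 18 and 20), as did 2 of 9 control embryos. The difference was -7.44 points (SE 7.69; 15.6% ± 16.8, SD, n = 9 against 8.19% ± 14.1, SD, n = 7; limma adjusted p = 0.825). It turned to 2.06 points among densely covered embryos. It was -12.4 points without mutant replicate 14 and -3.14 points without control replicate 7. In the 11 embryos with a value in both stretches the first was higher in 7, and Pearson r between them was 0.52, as a description over embryos that differ in coverage.

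Single cluster windows went both ways. Of the 105, 44 could be tested, 23 lower and 21 higher in mutant embryos, with a median difference of -1.28 points and a median SE of 14.2 points, so a difference of many points would not pass here. The most negative difference among the tested Sfmbt2 windows was from 10470486 to 10473985 (tied with the next window), at 22.9% in control (n = 6) and 0% in mutant embryos (n = 3; limma adjusted p = 0.834). Control replicates 2, 4 and 5 also read 0% there, so the groups overlapped. The largest difference upward among the tested Sfmbt2 windows was in the first window of the locus.

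Levels in the cluster come in coarse steps. Exactly 0% made up 48.8% of its values and exactly 50% made up 14.3%, against 48.6% and 7.06% over all windows. Mutant replicate 14 read exactly 50% in a run of 24 windows with a value, and control replicate 7 read 50% in all 11 of its windows. Neighbouring windows share most of their bases, so the 105 windows do not give 105 measurements. Only 13 windows can be laid along the cluster without overlap, and over these the difference was -11.7 points (SE 6.53; 20.8% in control, n = 9, 9.14% in mutant embryos, n = 7). Mutant replicate 20 had no value there. The sparsely covered control replicates 6, 7 and 8 read 16.7%, 50.0% and 0%, and the sparsely covered mutant replicates 13, 15, 18 and 19 read 8.33%, 0%, 0% and 0%.

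**Figure D2:**
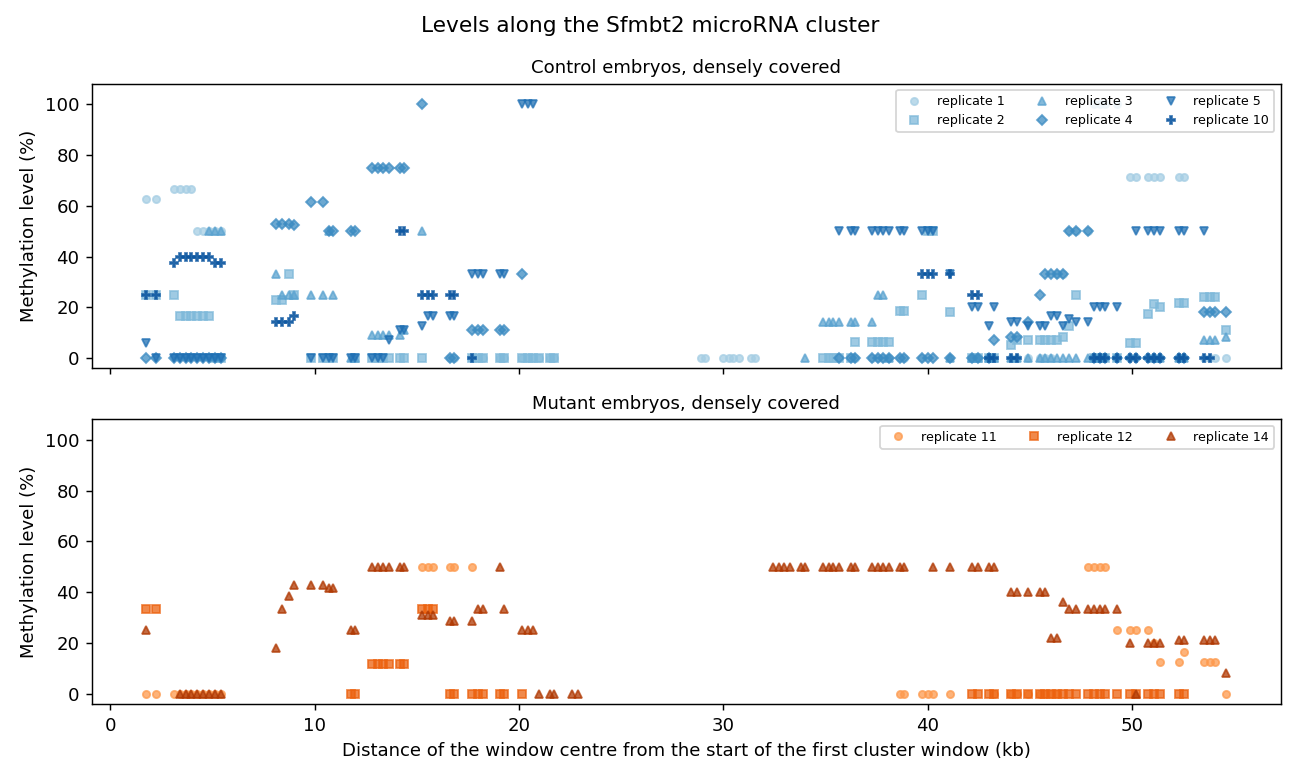
Methylation level in percent (vertical axis) of each cluster window against its distance in kb from the start of the first cluster window (horizontal axis), with control replicates above and mutant replicates below, densely covered embryos only and 1 symbol per replicate. Both panels hold values from 0% upward, and mutant replicate 14 keeps to 50% over a run of 24 windows.

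Along the cluster, in steps of 10 kb, the sign of the difference changed with position. In the first step the means were 26.6% in 6 control and 11.9% in 4 mutant embryos. In the second they were 21.9% in 8 and 32.6% in 3. So the direction turned within neighbouring steps that held different embryos. From 20 to 30 kb the means were 36.7% in 5 control and 4.69% in 2 mutant embryos, the widest gap of the 6 steps (-32.0 points), with control values from 0% to 100%. These embryos were read in different windows of the step. In its first window control replicates 1, 2, 4, 5 and 6 read 0%, 0%, 33.3%, 100% and 50.0%, and mutant replicates 12 and 14 read 0% and 25.0%. Mutant replicate 14 also read 0% in later windows, where control replicates 4, 5 and 6 had no value. From 30 to 40 kb the means were 17.4% (n = 6) and 15.0% (n = 5). In the step from 40 to 50 kb the means were 11.1% (n = 8) and 13.2% (n = 4), and in the last, from 50 to 60 kb, 21.6% (n = 8) and 6.49% (n = 5). Mutant embryos were thus lower in 4 of 6 steps and higher in 2. No step was tested.

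Other places where windows crowd together were set beside the cluster, as a description. There were 21 blocks of at least 10 windows, all of them tested, and the Sfmbt2 stretches ranked 2 and 3 by number of windows, the shorter tied with a block on chromosome 12. By size of loss they ranked 12 and 15 of 21, and by control level 15 and 18. The median of the 21 was 32.8% in control and 15.9% in mutant embryos, and 17 of them were lower in mutant embryos. Many of the 21 are neighbours, on chromosome 7 from 59054657 to 59557596 and on chromosome 12 from 109549223 to 109714811. The medians, ranks and counts thus lean on these stretches and are no general background of crowded promoters. The block tied with the first Sfmbt2 stretch at 45 windows, on chromosome 12 from 109672494 to 109714811, stood at 57.2% in control and 15.9% in the mutants, a difference of -41.3 points (limma SE 6.35, adjusted p = 0.0174), and was the 1 crowded block that passed. Its difference from the Sfmbt2 cluster was not tested.

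**Figure D3:**
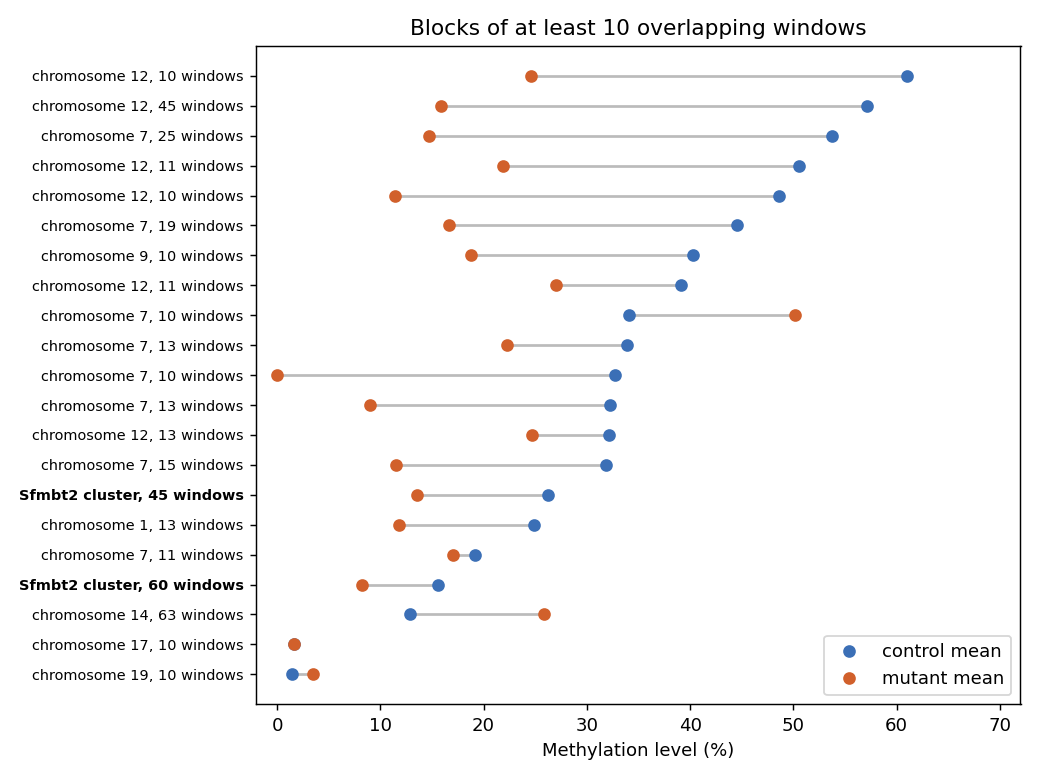
Mean methylation level in percent (horizontal axis) of control (blue) and mutant embryos (orange) for each of the 21 blocks of at least 10 windows, ordered by control level, with the Sfmbt2 stretches in bold. Both Sfmbt2 stretches sit in the lower part by control level, with mutant means of 13.5% and 8.19%.

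By a rule on likeness over embryos, the blocks that followed the longer Sfmbt2 stretch most closely were 1 on chromosome 2 from 91477205 to 91483136 (Pearson r = 0.87), 1 on chromosome 8 from 124147266 to 124150765 (0.86) and 1 on chromosome 9 from 118985229 to 118992297 (0.79), each over 15 embryos. They were the highest of 387 blocks with that many shared embryos, whose median r was 0.09. All share the same libraries and coverage.

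Gab1 encodes an adaptor protein that passes signals on from receptor tyrosine kinases and is needed in the placenta. Its interval held 4 blocks, and the neighbouring protein-coding genes in the RefSeq table are Smarca5 and Usp38, so some windows may belong to them. A pair of these blocks was close to unmethylated. The block from 81603569 to 81610148 ran from 0% to 3.66% in control embryos (1.25% ± 1.71, SD, n = 7), and mutant replicates 11, 12, 14, 18 and 20 read 0%, 1.52%, 0.45%, 0.89% and 0% (mean 0.57%). The window from 81465627 to 81469126 ran from 0% to 6.25% in control embryos (1.19% ± 2.19, SD, n = 8) and mutant replicates 11, 12, 14, 15 and 19 read 0%, 2.33%, 0%, 1.79% and 1.90% (mean 1.20%). The differences were -0.68 points (SE 2.06, limma adjusted p = 0.939) and 0.02 points (SE 2.05, limma adjusted p = 1.0), and the groups overlapped at both.

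The other Gab1 blocks were variable in both groups. In the window from 81494320 to 81497819 control embryos ran from 0% to 66.7% with a median of 22.5%, and mutant replicates 11, 12 and 14 read 30.8%, 0% and 54.5%. The difference was 7.19 points (SE 15.1; 21.2% ± 22.7, SD, n = 8 against 28.4% ± 27.3, SD, n = 3; limma adjusted p = 0.905). Both groups thus spanned nearly the same range. In the window from 81455267 to 81458766 control replicates 1, 2 and 3 read 0%, replicate 4 read 44.4% and replicate 5 read 33.3%, while mutant replicate 14 read 50.0% and replicates 11, 12, 13 and 18 read 0%. The difference was -5.56 points (SE 13.03, limma adjusted p = 0.917). It was 1.11 points among densely covered embryos and -15.6 points without mutant replicate 14. At both windows control replicate 4 and mutant replicate 14 were the highest of their groups.

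Jade1, also called Phf17, encodes a subunit of the HBO1 histone acetyltransferase complex. The window from 41517634 to 41521133 was nearly unmethylated, from 0% to 3.57% in control embryos (1.01% ± 1.40, SD, n = 7) and from 0% to 9.09% in mutant embryos (2.18% ± 3.54, SD, n = 6), 1.18 points apart (SE 2.21, limma adjusted p = 0.894). The mutant value of 9.09% came from the sparsely covered replicate 15, and the others lay at or under 2.50%.

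The other Jade1 windows differed in opposite directions, neither past the threshold. In the window from 41482410 to 41485909 control replicates 2, 3, 5 and 10 read 0%, 42.9%, 18.8% and 33.3%, and mutant replicates 11, 14 and 16 read 0%, 7.14% and 0%. The difference was -21.4 points (SE 10.4, limma adjusted p = 0.819, exact two-sided permutation p = 0.229), with 3 of 4 controls above every mutant embryo and control replicate 2 at 0%. In the window from 41507166 to 41510665 control replicates 1, 4, 5, 9 and 10 read 0% and replicate 2 read 13.3%, while mutant replicates 11, 14 and 17 read 25.0%, 25.0% and 0%. The difference was 14.4 points (SE 6.38, limma adjusted p = 0.809, exact two-sided permutation p = 0.167), and the sparsely covered replicate 17 lay with the controls.

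Smoc1 encodes a secreted matrix protein that modulates BMP signalling. Its single window, from 81070582 to 81074081, ran from 0% to 17.4% in control embryos with a median of 9.76%, and from 0% to 23.3% in mutant embryos with a median of 0%. The mutant embryos at 0% were replicates 11, 15, 16 and 20, of which 3 were sparsely covered, and 3 of 7 control embryos were also at 0%. The means were 7.45% ± 7.32 (SD, n = 7) and 5.87% ± 9.79 (SD, n = 6), and the difference was -1.58 points (SE 4.79, limma adjusted p = 0.939). Among densely covered embryos it was 3.05 points.

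Slc38a4 encodes an amino acid transporter of the placenta and liver. In the window from 96939039 to 96942538 control replicates 1, 2, 3, 4, 5 and 10 read 25.0%, 13.7%, 3.03%, 23.1%, 5.88% and 25.0%, and mutant replicates 12 and 14 read 0%. All 8 embryos were densely covered, and every control embryo lay above both mutant embryos. It was the 1 of 14 member blocks in which the groups did not overlap in that direction, and the share was 1.84% over all 37870 blocks read in 2 or more embryos of each group. That share pools blocks read in different numbers of embryos, and groups separate more easily when few embryos are read. In the opposite direction there were 0 of 14, against 0.808%. The control mean was 15.95% ± 9.88 (SD, n = 6), the difference was -15.95 points, and the exact two-sided permutation p was 0.0714, without adjustment. This is the smallest p the test can give for 6 against 2 embryos, so it could not have fallen under 0.05. With 2 mutant embryos the window fell under the minimum for limma.

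The other Slc38a4 window, from 96953338 to 96956837, did not separate the groups. Control embryos ran from 0% to 60.0% with a median of 19.5%, and mutant replicates 11, 12, 14 and 15 read 50.0%, 10.0%, 0% and 0%. The means were 24.3% ± 20.7 (SD, n = 8) and 15.0% ± 23.8 (SD, n = 4), and the difference was -9.28 points (SE 12.6, limma adjusted p = 0.858). Among densely covered embryos it was 0.13 points, and without mutant replicate 11 it was -20.9 points. Mutant replicate 14 read 0% in both Slc38a4 windows and was the highest of the mutant embryos in the Sfmbt2 cluster.

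**Figure D4:**
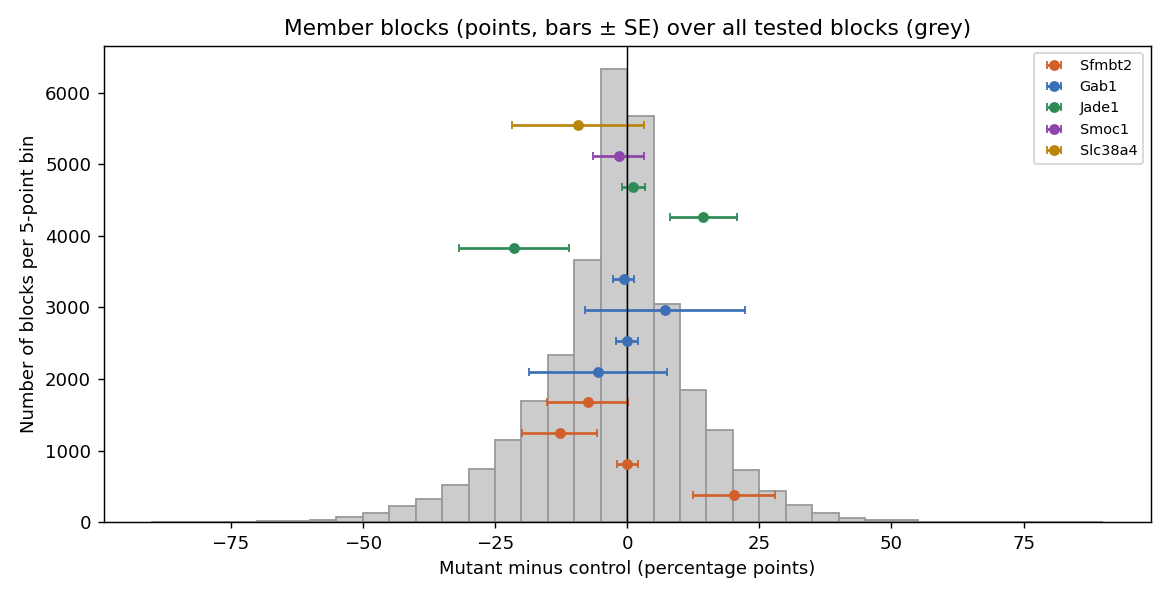
Difference in methylation level, mutant minus control, in percentage points (horizontal axis) for the 13 tested member blocks (coloured points by locus, bars ± SE), over a histogram of all 30804 tested blocks (grey, number per bin on the vertical axis). Member blocks lie on both sides of 0, from -21.4 to 20.2 points.

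Ordered by control mean, the tested blocks can be described as 2 levels, which were read off these same means and not tested. The Sfmbt2 cluster stretches, the second Slc38a4 window, 1 Jade1 window and a pair of Gab1 windows stood at 15.6% to 26.3%, and neighbours in that order did not differ beyond their SD. Smoc1 lay between at 7.45%. The remaining 6 blocks, at Sfmbt2, Gab1 and Jade1, stood at 0.79% to 2.22% in control embryos. Among those 6, the mutant means were 0.57% to 2.18% at 4 and 16.7% and 21% at the Jade1 and Sfmbt2 windows described above. The 6 were picked by low control means, a choice that favours higher mutant means among them.

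Averaged per locus over the windows with a value, mutant embryos were lower at all 5 loci when every embryo was used, and no locus mean was tested. The differences were -10.5 points at Sfmbt2 (SE 6.08), -4.31 at Gab1 (SE 4.37), -2.28 at Jade1 (SE 3.13), -1.58 at Smoc1 (SE 4.86) and -9.06 at Slc38a4 (SE 13.3). Embryos were read in different windows of a locus, so a locus mean also depends on which windows had a value. At Gab1, control replicate 9 (33.3%) and mutant replicate 15 (1.79%) were each read in 1 window, from different blocks. Within Gab1 and within Jade1 the block differences went both ways. With overlapping windows merged into blocks of equal weight the Sfmbt2 difference was -5.53 points, and with each window taken as a deviation from its mean over embryos the Gab1 difference was -1.51 points. Among densely covered embryos the differences were -0.78 at Sfmbt2, 1.54 at Gab1, -0.84 at Jade1, 3.05 at Smoc1 and 0.42 at Slc38a4, so 3 of 5 were then above 0. In that subset 6 control embryos were set against 3 mutant embryos, replicates 11, 12 and 14.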

How the data were processed

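Single blastocysts were bisulfite sequenced after their polyadenylated RNA had been removed on beads, per the labels' protocols. Reads were processed with Trim Galore 0.4.4 and Bismark 0.18.2 against GRCm39, per the submitters' processing notes. What the authors deposited is 1 table that holds, for each promoter window and embryo, a methylation level in percent. The sources used here do not give how calls were combined, a coverage minimum or how windows were chosen. Of 54080 rows, 46 repeated another row and were dropped. Of 491705 values, 1594 (0.324%) were whole numbers above 100, read as percents without their decimal point and divided by 1000. The depth is unknown, so no binomial interval is given. An embryo with over 25000 windows with a value was called densely covered. The 152 windows on chromosome Y were left out of the tests.

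limma 3.58.1 in R 4.3.3 (lmFit, eBayes) was fitted over all windows, and over all blocks of windows overlapping by at least 1 base, with at least 3 embryos per group. In a check on these same values, shuffled between embryos within each window, it made more false calls than its threshold allows. Some of the windows counted as passing may therefore be false calls, and blocks were not checked in this way. SE values beside an adjusted p are those of limma. The SE of a cluster mean or a locus mean comes from the group SDs, so the single Smoc1 window is given with both kinds. Permutation tests used scipy 1.17.1. Named windows are, per locus, those past the threshold or else the largest fall, the largest rise and the one with most embryos, and every block is given. Likeness took the 3 highest Pearson r to the longer Sfmbt2 stretch over at least 15 embryos. The loci, rules and tests were chosen with earlier results of these data known. Other genes of the noncanonical class were not analysed here, since windows carry no names and the gene table is on another build. MicroRNA sequences of the cluster are not printed.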

Additional observations from a re-analysis of the deposited data

Results flagged for a closer look

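A total of 34 groups of values (a block or a locus mean in 1 group of embryos) were checked for an embryo whose gap to the next exceeded Dixon's limit, and 12 were past it. Chance gives about 1 in 20 for values from a normal distribution. These levels are bounded at 0% and skewed, so that rate does not apply to them. Blocks with most embryos at 0% pass this limit as soon as 1 embryo does not, and the locus means repeat values of their blocks, so the 12 are not independent.

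Mutant replicate 14, the mutant embryo with the most windows, stood apart upward in 5 of the 12: at 38.2% in the second stretch of the Sfmbt2 cluster (next 13.3%), 32.2% over the Sfmbt2 cluster (next 14.9%), 31.5% over all Sfmbt2 windows (next 14.4%), 50.0% in the first Gab1 window (next 0%) and 21.1% over the Gab1 locus (next 6.15%). Control replicate 7, sparsely covered, stood at 50.0% over all Sfmbt2 windows (next 24.3%) and over the cluster alone (next 25.0%), with 11 windows read.

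The other 5 were single values. Control replicate 4 stood at 4.76% in the first Sfmbt2 window and control replicate 2 at 13.3% in the second Jade1 window, with the other controls at 0%. Mutant replicate 15 stood at 9.09% in the third Jade1 window (next 2.50%), control replicate 6 at 6.25% in the second Gab1 window (next 2.17%), and mutant replicate 11 at 50.0% over Slc38a4 from 1 window (next 5.00%).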

How the results depend on the processing

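No member window or block passed the threshold with at least 5 embryos per group, with values above 100 left out, on the arcsine square root scale, with trend and robust fitting, with the level of each embryo subtracted, in densely covered embryos alone or with any of 20 embryos left out (0 to 0 windows and 0 to 0 blocks). With at least 7 embryos per group, and in sparsely covered embryos alone, 1 block could be tested and no window. The sign turned among densely covered embryos for the second Sfmbt2 cluster stretch (2.06 points), the first Gab1 window (1.11), Smoc1 (3.05) and the second Slc38a4 window (0.13). It also turned for the second Sfmbt2 window on the arcsine scale (-0.0079 radians) and for the last Gab1 block with the embryo level subtracted (0.61 points). The Slc38a4 locus mean moved to -37.5 points among sparsely covered embryos (2 control, 1 mutant), and the Jade1 locus mean turned from -2.28 to 0.89 points there (2 control, 5 mutant). Merging windows into blocks of equal weight took the Sfmbt2 locus mean to -5.53 points, and deviations from the window mean took that of Gab1 to -1.51. With single embryos left out, the locus mean difference ran from -13.9 to -6.60 points at Sfmbt2, -15.1 to -7.61 over its cluster, -6.74 to -1.54 at Gab1, -3.40 to -0.07 at Jade1, -5.07 to 0.0803 at Smoc1 and -21.1 to -4.48 at Slc38a4. The block differences ran from 12.96 to 25.5 points in the first Sfmbt2 window, -0.54 to 0.30 in the second, -16.6 to -8.25 and -12.4 to -3.14 in the cluster stretches, -15.6 to 1.67, -0.26 to 0.74, 4.15 to 13.7 and -0.91 to -0.28 in the Gab1 blocks in order of position, -29.3 to -15.0, 14 to 16.7 and -0.20 to 1.62 in the Jade1 windows, -5.07 to 0.0803 at Smoc1 and -20.9 to -4.18 in the second Slc38a4 window. The Sfmbt2 window with the most negative difference ran from -27.5 to -17.5 points. Locus means over windows that do not overlap and among sparsely covered embryos were added after seeing the data. No paired analysis was possible because no replicate number occurs in both groups. Depth limits all of this: the number of reads behind single levels is unknown.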
